A study of Mus musculus with 6 samples.

Results

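The genes examined encode the DNA replication machinery: 38 listed genes for origin licensing, the replicative helicase and its activators, primase and the polymerases, the sliding clamp and its loader, single-strand binding and lagging-strand processing, and nucleotide supply. Their probe sets were taken by name, as those to which the platform annotation assigns exactly 1 symbol, current or older, from the list. The list was drawn up with earlier results of these data known. All 38 had named probe sets, and 37 of the 20059 genes measured in the series were members after probe sets at or below the median level of the table were left out. The member lost was Rrm2, the small subunit of ribonucleotide reductase, whose single named probe set had a mean below the filter. The 37 measured members rested on 687 probe sets, from 4 for Fen1 to 52 for Pole.

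The RNA came from KLS cells, the Kit+ Sca-1+ bone marrow fraction without mature lineage markers, which holds blood stem cells and multipotent progenitors. One group was wild-type mice (3 arrays), the other Dnmt3a+/- mice (3 arrays), which retain 1 intact copy of Dnmt3a, a DNA methyltransferase. No treatment, age or strain is given in the sources used here, and the labels do not say whether the arrays of a genotype are separate animals, so the p-values describe only the variation among these 6 hybridisations, which may be technical. By its title the study asks whether losing 1 copy of Dnmt3a predisposes blood-forming cells to myeloid malignancy, and the comparison below asks whether the replication genes differ between the genotypes.

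Replication starts where the origin recognition complex, with Cdc6 and Cdt1, loads the ring of Mcm2 to Mcm7 onto DNA in G1. At the start of S phase Cdc45 and the GINS complex join the ring to make the active helicase, primase and the polymerases follow, and Pcna holds the polymerases on the template. Many of these genes are transcribed in late G1 under E2F factors. Most long-term stem cells are quiescent, whereas multipotent progenitors cycle more. In a bulk sample, fewer cycling cells and less RNA per cell cannot be told apart.

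Promoter sequence did not enter the choice of members. The RefSeq promoter table (GRCm38.p6, 300 bases around a gene's start, most of them upstream) held 36 promoters for 31 of the 38 genes. They were searched on both strands for 4 E2F-type words (TTTGGCGC, TTTCCCGC, TTTCGCGC and TTTGCCGC, which can overlap one another), for CCAAT and for GGGCGG. An E2F-type word stood in 13 of the 36 (36.1%), where 2.26% of all 32851 promoters of the table held one. CCAAT was found in 58.3% of member promoters against 37.4% of all, and GGGCGG in 69.4% against 35.7%. In the list of other replication factors 10 of 41 promoters (24.4%) held an E2F-type word, among the regulators of G1 and S entry 8 of 29 (27.6%), in the mitosis list 1 of 17 (5.88%) and among other nucleotide supply genes 0 of 18. GGGCGG was as frequent in those lists, at 72.2% to 80.5%, and CCAAT stood in 76.5% of the mitosis promoters. The shares are descriptions, and a word in a window is not a bound site.

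Stretches of 100 upstream bases follow for the helicase subunits Mcm5, Mcm6 and Mcm7, because they carry the E2F-type words upstream. They also follow for Gins3, Cdt1, Dut and Rfc4, the members with a promoter in the table and the smallest p between genotypes. Counted from the start, the stretch runs from -173 to -74 for Mcm5, -130 to -31 for Mcm6 and -185 to -86 for Mcm7. For Rfc4 it runs from -250 to -151, and for Gins3, Cdt1 and Dut from -100 to -1. Capitals mark the E2F-type words on either strand in the first 4 sequences and the GGGCGG word on either strand in the last 3. The ring genes were picked after their promoters had been read.
Mcm5 (chr8:75109336-75109435, plus strand): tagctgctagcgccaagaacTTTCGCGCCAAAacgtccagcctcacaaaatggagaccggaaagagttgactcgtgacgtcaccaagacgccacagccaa
Mcm6 (chr1:128359736-128359835, minus strand): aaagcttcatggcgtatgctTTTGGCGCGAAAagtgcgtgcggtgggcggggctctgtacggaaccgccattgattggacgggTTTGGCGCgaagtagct
Mcm7 (chr5:138171969-138172068, minus strand): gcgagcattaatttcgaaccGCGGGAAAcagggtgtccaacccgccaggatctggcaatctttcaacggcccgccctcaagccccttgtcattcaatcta
Gins3 (chr8:95633459-95633558, plus strand): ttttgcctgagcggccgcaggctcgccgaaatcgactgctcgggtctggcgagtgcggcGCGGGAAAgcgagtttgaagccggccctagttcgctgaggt
Cdt1 (chr8:122567915-122568014, plus strand): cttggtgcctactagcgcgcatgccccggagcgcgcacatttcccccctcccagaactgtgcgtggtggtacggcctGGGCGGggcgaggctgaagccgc
Dut (chr2:125247415-125247514, plus strand): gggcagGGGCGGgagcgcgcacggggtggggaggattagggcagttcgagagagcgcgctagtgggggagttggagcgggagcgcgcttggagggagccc
Rfc4 (chr16:23127881-23127980, minus strand): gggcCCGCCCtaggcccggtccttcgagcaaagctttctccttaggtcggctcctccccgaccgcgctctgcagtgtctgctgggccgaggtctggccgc
Mcm6 carries 3 such words, 2 of them overlapping, and Mcm5 an overlapping pair. Cdt1 has its only E2F-type word after the start, 33 bases in, outside the stretch shown, while Dut and Rfc4 have none in their windows.

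The precision of these arrays is set by how few there were in each genotype. Dnmt3a itself read 8.51, 8.70 and 8.50 on the wild-type arrays and 8.38, 8.20 and 8.20 on the Dnmt3a+/- arrays (log2 intensity, as all levels here). It was lower on every Dnmt3a+/- array (difference -0.31, SE 0.12), without passing over all genes (limma, adjusted p = 0.631). Genes lower on every Dnmt3a+/- array made up 9.05% of all genes and 19.0% of its level decile, where the median difference was -0.14. The markers of the sort were read by all of their probe sets, 25 of 25 for Kit and 4 of 4 for Ly6a (Sca-1) above the table's median level. Of the neutrophil list 99 of 121 probe sets lay above it, with Ly6g at 0 of 4 and the primary granule gene Mpo at 15 of 15, and of the B lineage list 47 of 103, with Ms4a1 at 1 of 10 and Cd79b at 9 of 9. Dnmt3a+/- replicate 2 stood apart from the other arrays, with a mean Pearson correlation of 0.904 across genes, where the others had 0.938 to 0.949.

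The replication genes did not differ between wild-type and Dnmt3a+/- KLS cells beyond the spread between arrays. None of the 37 passed over all genes (limma, adjusted p of 0.657 or higher, and 0% of all genes passed), and none had an unadjusted p under 0.05, which 7.49% of all genes had. The median log2 difference, Dnmt3a+/- minus wild-type, was -0.035 over the members, a fold of 0.976, and -0.023 over all genes. The largest differences were -0.33 for Gins1 and 0.23 for Pole2, and 24 members lay on the negative side. The 95% interval of the difference stayed within 2-fold in either direction for 36 members and within 1.5-fold for 20, so smaller shifts could not be seen. The genotypes did not overlap for 1 member, Cdt1, against 15.8% of all genes.

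The sign of the median turned with single arrays. It was -0.20 without wild-type replicate 1 and 0.12 without Dnmt3a+/- replicate 2, and it was positive as well without wild-type replicate 2 (0.038) or 3 (0.016). Without wild-type replicate 1 the genotypes did not overlap for 10 members (27.0%), but neither did they for 31.4% of all genes. The number was 3 without wild-type replicate 2 or Dnmt3a+/- replicate 2, where 22.9% and 22.5% of all genes did not overlap, and 2 without Dnmt3a+/- replicate 3, with 31.8% of all genes. The 27 members in the 3 highest level deciles shared them with genes whose own median differences were -0.14 to -0.12.

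**Figure D1:**
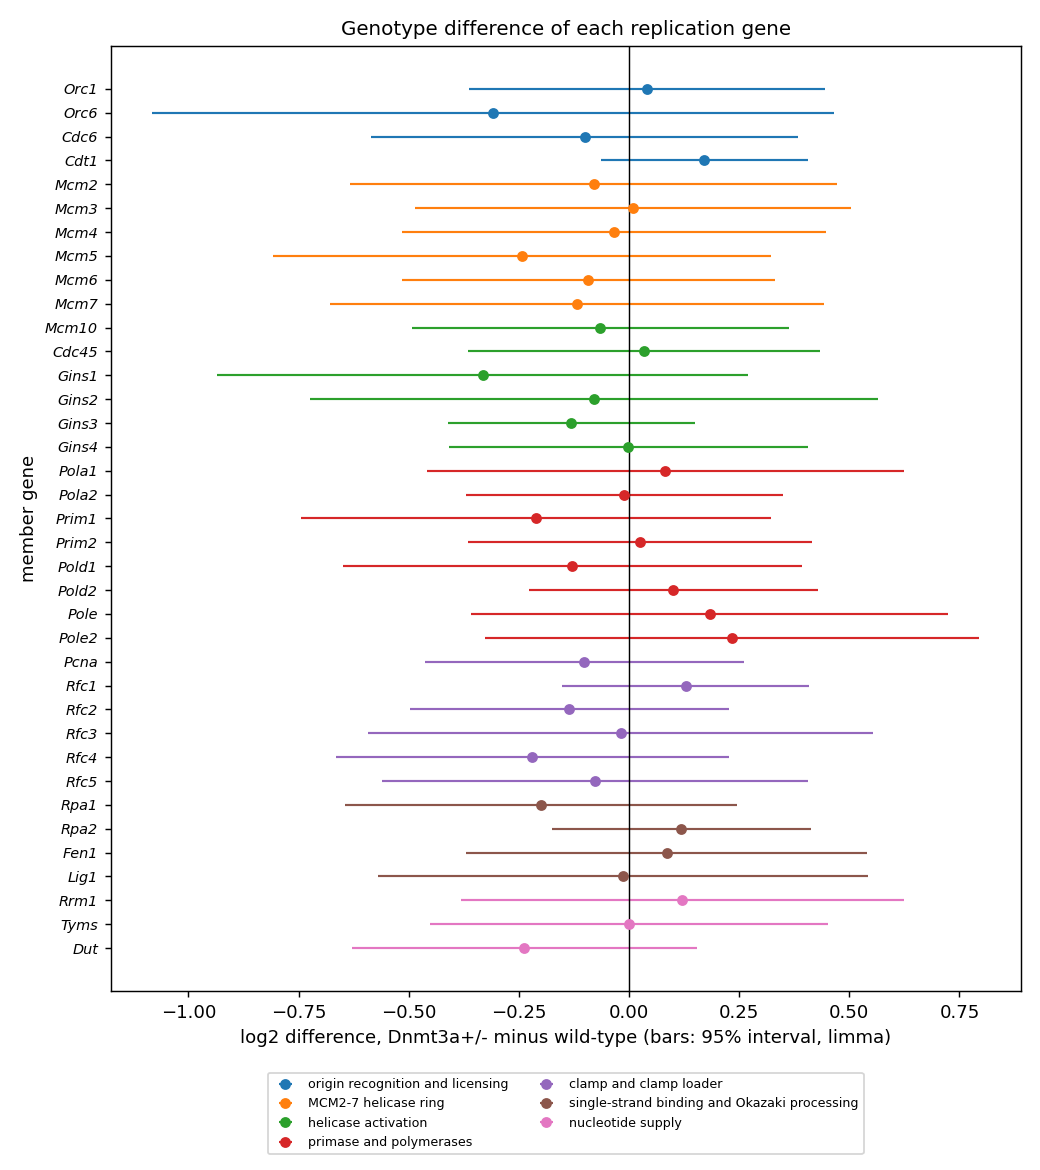
Log2 difference between genotypes (Dnmt3a+/- minus wild-type, x axis) for each of the 37 measured members (y axis, grouped and coloured by role). Points are the limma estimates and bars their 95% intervals over 3 against 3 arrays. Every interval includes 0, and the estimates run from -0.33 for Gins1 to 0.23 for Pole2.

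The arrays differed within each genotype, and there the members stood together. Wild-type replicate 1 was the lowest wild-type array for 32 of 37 members (34.2% of all genes), and Dnmt3a+/- replicate 2 the lowest Dnmt3a+/- array for 30 (43.2% of all genes). Both held for 26 members, 70.3%, against 19.7% of all genes. Among genes of the 3 highest level deciles, where 27 of the 37 members lay, these shares were 47.5%, 65.4% and 35.7%. For 36 members the lowest of all 6 arrays was one of this pair, against 44.3% of all genes, and Cdt1 was the exception. These 2 arrays were singled out after the values were seen, so the counts are descriptions and no test goes with them.

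In size, wild-type replicate 1 lay below the mean of the other wild-type arrays by a median of -0.47 over the members, from -0.86 for Orc6 to 0.026 for Pold1. Dnmt3a+/- replicate 2 lay below the mean of its group's other arrays by a median of -0.38, from -1.0 for Orc6 to 0.37 for Fen1. The same medians over all genes were 0.014 and -0.033, and over the genes of the 3 highest level deciles -0.059 and -0.19. The pooled SD within genotypes had a median of 0.29 over the members and 0.17 over all genes, and for 33 members the genotype difference was smaller than that SD. After cyclic loess, which adjusts each array along the range of brightness, wild-type replicate 1 was lowest for 32 members and Dnmt3a+/- replicate 2 for 28, where all genes had 34.4% and 41.7%.

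**Figure D2:**
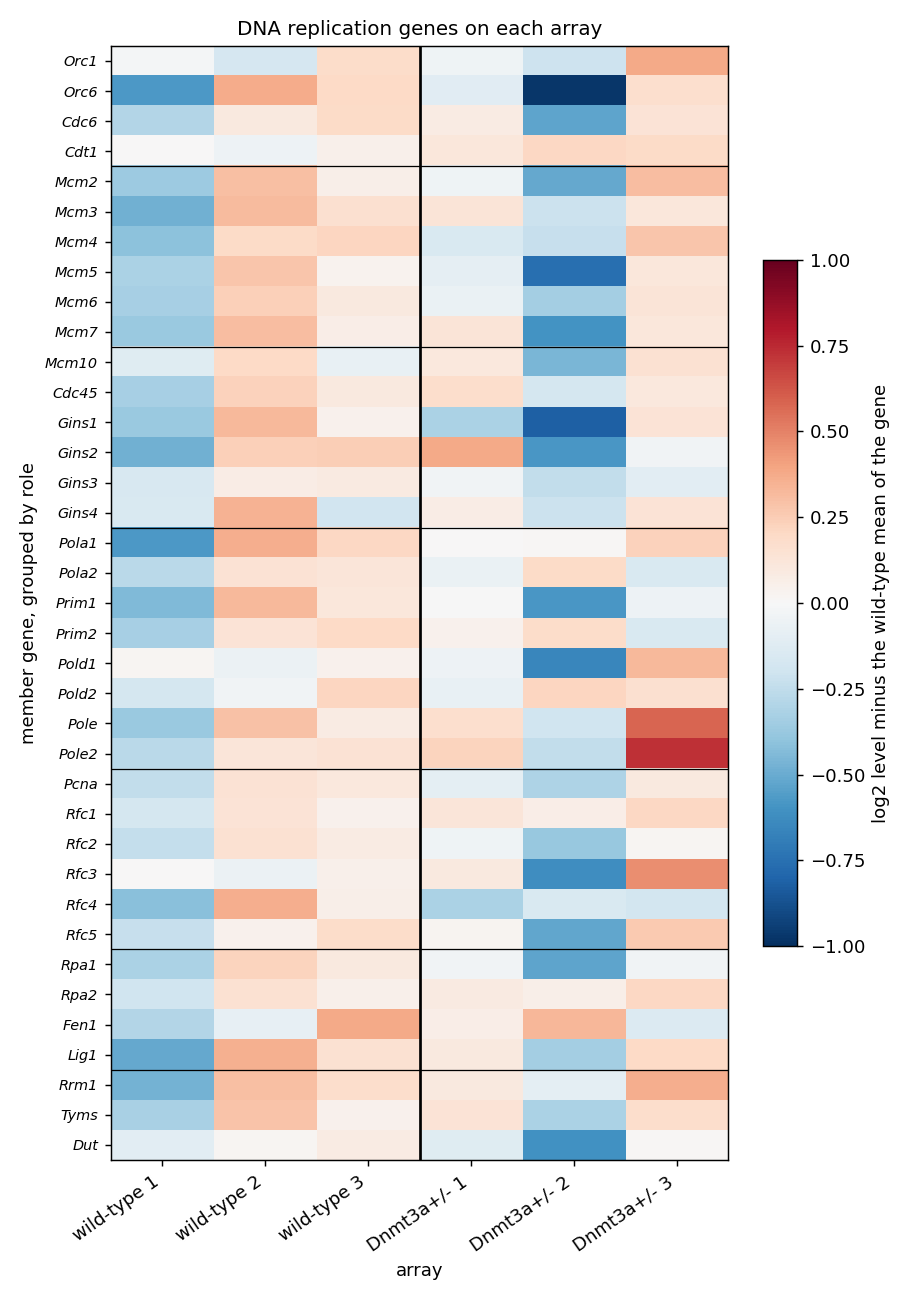
Log2 level of each member (rows, grouped by role) on each of the 6 arrays (columns), minus the wild-type mean of that gene, from blue (lower) to red (higher). The columns of wild-type replicate 1 and Dnmt3a+/- replicate 2 are blue for most members, with medians of -0.32 and -0.31, while the other 4 columns have medians from 0.027 to 0.20.

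**Figure D3:**
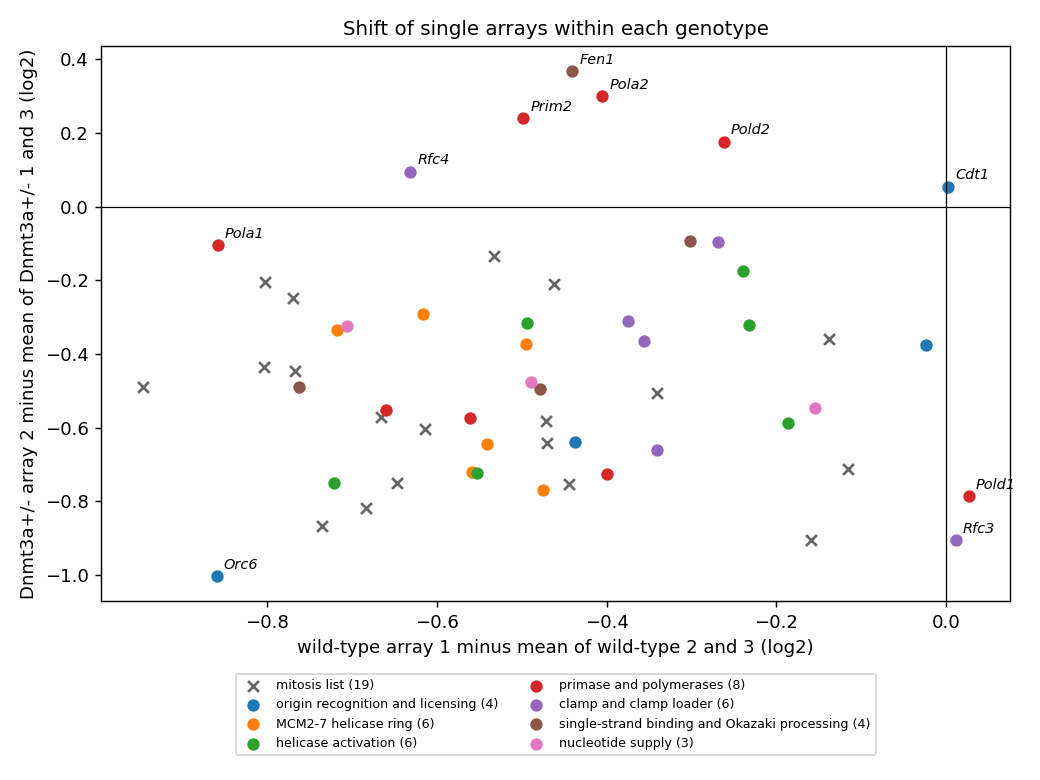
Shift of wild-type replicate 1 against the mean of the other wild-type arrays (x axis, log2) and of Dnmt3a+/- replicate 2 against the mean of the other Dnmt3a+/- arrays (y axis, log2). Each point is a member coloured by role, and crosses are the 19 mitosis genes. Most members lie at the lower left, Orc6 farthest, while Cdt1 lies near 0 on both axes and Fen1, Pola2, Prim2, Pold2 and Rfc4 lie above 0 on the y axis.

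Among the licensing genes Cdt1 did not follow the order of the arrays seen in most members. Cdt1 brings the MCM ring to origins and is kept in check by geminin and by proteolysis in S phase. It stood at 8.27, 8.21 and 8.32 on the wild-type arrays against 8.38, 8.47 and 8.46 on the Dnmt3a+/- arrays. All Dnmt3a+/- arrays were above all wild-type arrays, which held for 6.74% of all genes, and the arrays of a genotype lay within 0.051 (SD). The log2 difference was 0.17 (SE 0.10, a fold of 1.13, exact two-sided permutation p = 0.1, the smallest that 3 against 3 arrays allow), and it did not pass over all genes (limma, adjusted p = 0.657). Cdt1 stayed on the higher side without any 1 array (0.14 to 0.20), and with the median of probe sets it was at 0.31 with an unadjusted p under 0.05. Its probe sets were less uniform, with 4 of 12 negative and differences from -0.21 to 0.83. The genotypes did not overlap at 1 of the 12, and 0 had an unadjusted p under 0.05 (limma). By contrast Orc6, a subunit of the origin recognition complex, had the widest spread of the members, with 7.96, 8.90 and 8.74 on the wild-type arrays against 8.42, 7.56 and 8.70 on the Dnmt3a+/- arrays. Cdc6, the loading ATPase, followed the same 2 arrays (-0.10, SE 0.21), and Orc1, the largest subunit of the complex, was at 0.042 (SE 0.17).

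The 6 subunits of the MCM ring, the motor of the helicase, had the same order of arrays. Each had wild-type replicate 1 and Dnmt3a+/- replicate 2 as the lowest of its genotype, and their median relative to wild-type was -0.37, 0.29 and 0.080 on the wild-type arrays and -0.053, -0.43 and 0.12 on the Dnmt3a+/- arrays. Mcm2 stood at 7.91, 8.58 and 8.33 on the wild-type arrays against 8.23, 7.77 and 8.59 on the Dnmt3a+/- arrays. Mcm3 stood at 8.69, 9.49 and 9.33 on the wild-type arrays against 9.30, 8.96 and 9.28 on the Dnmt3a+/- arrays.

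In both genes the genotypes overlapped, with differences of -0.080 (SE 0.24) and 0.0089 (SE 0.21). Mcm4 stood at 8.17, 8.78 and 8.80 on the wild-type arrays against 8.43, 8.36 and 8.86 on the Dnmt3a+/- arrays. Mcm5 stood at 7.90, 8.50 and 8.26 on the wild-type arrays against 8.13, 7.47 and 8.34 on the Dnmt3a+/- arrays, and had the lowest difference of the ring, -0.24 (SE 0.24, limma adjusted p = 0.743). Without Dnmt3a+/- replicate 2 that difference was 0.014.

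Mcm6 and Mcm7 complete the ring. Mcm6 stood at 9.54, 10.10 and 9.96 on the wild-type arrays against 9.80, 9.52 and 9.99 on the Dnmt3a+/- arrays, a difference of -0.093 (SE 0.18). Mcm7 stood at 8.54, 9.22 and 8.98 on the wild-type arrays against 9.05, 8.32 and 9.03 on the Dnmt3a+/- arrays, a difference of -0.12 (SE 0.24). Except for Mcm5, no subunit differed by more than 0.12, and the differences of Mcm2, Mcm4, Mcm6 and Mcm7 were positive without Dnmt3a+/- replicate 2 (0.13, 0.062, 0.032 and 0.12) and also without wild-type replicate 2 (0.071, 0.063, 0.025 and 0.036).

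The genes that turn the loaded ring into a helicase included the GINS subunit Gins1, with the most negative difference of the members in this fit. It stood at 7.38, 8.07 and 7.79 on the wild-type arrays against 7.43, 6.93 and 7.88 on the Dnmt3a+/- arrays, so that replicate 2 lay below every wild-type array and the other Dnmt3a+/- arrays among them (-0.33, SE 0.26, limma adjusted p = 0.696). All 8 of its probe sets had negative differences. Its difference was -0.092 without Dnmt3a+/- replicate 2, -0.17 without wild-type replicate 2, -0.52 without wild-type replicate 1 and -0.57 without Dnmt3a+/- replicate 3, and with the filter at the 75th percentile (-0.26) or array weights (-0.34) another member was lower. Gins3 had a narrower spread, with 7.08, 7.31 and 7.32 on the wild-type arrays against 7.20, 6.99 and 7.13 on the Dnmt3a+/- arrays (-0.13, SE 0.12), but with the filter at the 75th percentile it was at -0.40. Gins2 (-0.080), Gins4 (-0.0020), the helicase partner Cdc45 (0.035) and Mcm10, a scaffold of helicase activation (-0.065), lay nearer to 0 with SEs of 0.17 to 0.28.

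Primase and the polymerases followed this order less uniformly. Wild-type replicate 1 was the lowest wild-type array for 7 of these 8 genes, the exception being Pold1, whereas Dnmt3a+/- replicate 2 was the lowest of its genotype for 4. Pole2, the accessory subunit of the leading-strand polymerase, had the most positive difference (0.23, SE 0.24, limma adjusted p = 0.749), with 6.81, 7.19 and 7.22 on the wild-type arrays against 7.30, 6.82 and 7.80 on the Dnmt3a+/- arrays. Dnmt3a+/- replicate 3 was its highest array, and without it the difference was -0.012. It was 0.059 with the filter at the 75th percentile, 0.37 with the median of probe sets, 0.10 without wild-type replicate 1 and 0.48 without Dnmt3a+/- replicate 2, where its unadjusted p was under 0.05. Its catalytic partner Pole stood at 0.18 (SE 0.23), the catalytic primase subunit Prim1 at -0.21 (SE 0.23) and the other primase subunit Prim2 at 0.025 (SE 0.17).

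The lagging-strand polymerase subunits Pold1 and Pold2 were at -0.13 (SE 0.23) and 0.10 (SE 0.14), and Pola1, the catalytic subunit of the priming polymerase, at 0.082 (SE 0.23). Pola2, its accessory subunit, had a gene value close between genotypes (-0.011, SE 0.16), but its probe sets did not share one direction. Of its 27 probe sets, 8 had an unadjusted p under 0.05 (limma), against 6.21% of all probe sets. Of these 8, 4 were lower and 4 higher in Dnmt3a+/- cells, and differences over the 27 ran from -1.07 to 1.92. None passed over all probe sets (limma, smallest adjusted p = 0.799, and 0% of 628415 passed).

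The sliding clamp Pcna, which ties polymerases and repair enzymes to DNA, read 10.57, 10.96 and 10.92 on the wild-type arrays against 10.72, 10.51 and 10.92 on the Dnmt3a+/- arrays. The ranges of the genotypes overlapped (-0.10, SE 0.16, limma adjusted p = 0.826), and 12 of its 15 probe sets had negative differences. Of the clamp loader subunits, Rfc1, the largest, read 8.31, 8.62 and 8.53 on the wild-type arrays against 8.60, 8.55 and 8.69 on the Dnmt3a+/- arrays (0.13, SE 0.12). Rfc4 stood at 7.16, 7.95 and 7.65 on the wild-type arrays against 7.26, 7.43 and 7.40 on the Dnmt3a+/- arrays (-0.22, SE 0.19), with the wild-type arrays spread on both sides of the Dnmt3a+/- arrays. Without wild-type replicate 1 its difference was -0.43 and its unadjusted p under 0.05, and without wild-type replicate 2 it was -0.039. The remaining loader subunits Rfc2, Rfc3 and Rfc5 were at -0.14, -0.019 and -0.076.

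The single-strand binding subunits Rpa1 and Rpa2 coat the unwound template. Rpa1 stood at 7.85, 8.39 and 8.27 on the wild-type arrays against 8.14, 7.64 and 8.14 on the Dnmt3a+/- arrays (-0.20, SE 0.19). Rpa2 stood at 8.07, 8.43 and 8.33 on the wild-type arrays against 8.37, 8.33 and 8.48 on the Dnmt3a+/- arrays (0.12, SE 0.13). The genotypes overlapped for both. With the median of probe sets in place of the mean both were negative (-0.058 and -0.037), and without wild-type replicate 1 Rpa2 was at 0.018. Lig1, which seals Okazaki fragments, was at -0.013 (SE 0.24), and the flap endonuclease Fen1, on 4 probe sets, at 0.085 (SE 0.20).

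Of the nucleotide supply genes Dut, which removes dUTP before it can enter DNA, read 9.27, 9.39 and 9.45 on the wild-type arrays against 9.25, 8.77 and 9.38 on the Dnmt3a+/- arrays (-0.24, SE 0.17, limma adjusted p = 0.682). Without Dnmt3a+/- replicate 2 the difference was -0.056. Rrm1, the large subunit of ribonucleotide reductase, stood at 0.12 (SE 0.22), and Tyms, which makes thymidylate, at -4.5e-05 (SE 0.20). Rrm2 below the filter stood at 4.12, 5.87 and 5.40 on the wild-type arrays against 5.67, 5.67 and 5.71 on the Dnmt3a+/- arrays from its single dim probe set, which gives no usable comparison.

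The probe sets of the members gave the same picture. Of 687, 372 had a negative difference (median -0.034), and 27 (3.93%) had an unadjusted p under 0.05, against 6.21% of all probe sets. Of these 27, 8 belonged to Pola2. The genotypes did not overlap at 18 probe sets with Dnmt3a+/- lower (2.62%, against 6.1% of all probe sets) and at 17 with it higher (2.47%, against 6.31%).

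**Figure D4:**
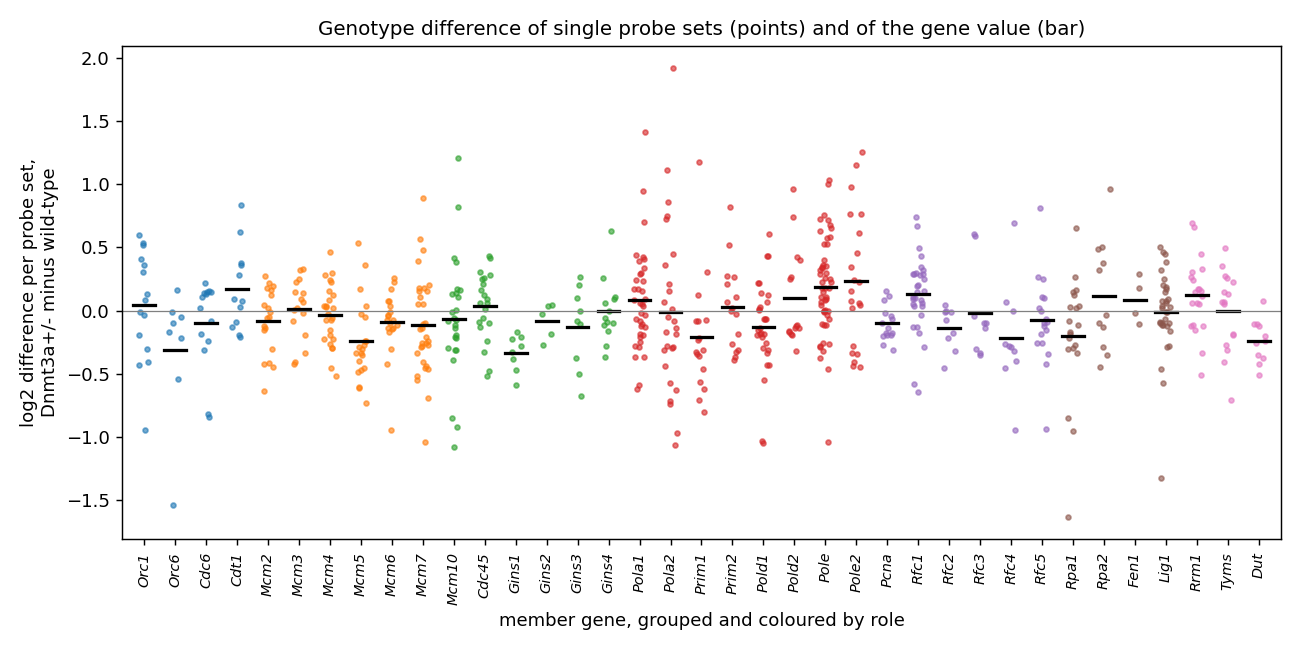
Log2 difference between genotypes (y axis) of each probe set (points, with random sideways spread) and of the gene value (black bar) for the 37 members on the x axis, coloured by role. Most points of a gene scatter on both sides of 0. All 8 points of Gins1 lie below 0, and Pola2 spans -1.07 to 1.92.

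Other genes of the pathway, taken as whole lists, showed no difference between genotypes that passed over all genes. The 3 genes with the smallest p of each list are named. Beside the list medians below, the median difference was -0.023 over all genes and -0.14 to -0.12 in the 3 highest level deciles. In those deciles 73.9% to 81.1% of genes were negative. Of 40 measured further replication factors 0 passed in either direction (median -0.11, 29 negative). In this list 2 were lower on every Dnmt3a+/- array (Orc3 and Mcm9), against 9.05% of all genes. Orc3, an origin recognition subunit, stood at -0.24 (SE 0.12). Orc4, another, was at -0.40 (SE 0.21) and the histone chaperone Asf1a at -0.45 (SE 0.24), both with overlapping genotypes. Of 16 further nucleotide supply genes 0 passed (median -0.062), with the folate enzyme Shmt1 at -0.30 (SE 0.20), the purine enzyme Atic at -0.25 (SE 0.17) and the dNTP hydrolase Samhd1 at -0.20 (SE 0.15). Of 29 regulators of G1 and S entry 0 passed (median -0.11), 3 were lower on every Dnmt3a+/- array (Ccnd2, Rbl2 and Cdk6) and 1 was higher (Ccnd3), against 9.05% and 6.74% of all genes. Cyclin D2 (Ccnd2) stood at -0.27 (SE 0.12), the kinase gene Cdk2 stood at -0.33 (SE 0.17) and Rb1, the pocket protein that holds E2F in check, at -0.27 (SE 0.15). Of 19 mitosis genes 0 passed (median -0.16), with the anaphase activator Cdc20 at -0.43 (SE 0.24), the kinetochore gene Cenpf at -0.32 (SE 0.23) and the spindle motor Kif11 at -0.31 (SE 0.27).

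These lists shared the order of the arrays to different degrees. Both named arrays were lowest in their genotype for 17 of 19 mitosis genes and for 28 of 40 other replication factors, beside 26 of 37 members. The same held for 19.7% of all genes and for 35.7% of those in the 3 highest level deciles. The mitosis median relative to wild-type was -0.41 on wild-type replicate 1 and -0.52 on Dnmt3a+/- replicate 2, against -0.074 to 0.21 on the others. For the regulators of G1 and S entry these medians were smaller, -0.11 and -0.23. The share for each list is a description, and the lists were not tested against each other.

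Markers of handling and of other cells were set beside this pattern. The median of 9 handling stress genes, immediate early and heat shock genes that respond within minutes to cell preparation, was 0.61, -0.081 and -0.55 on the wild-type arrays and 0.034, 0.19 and -0.60 on the Dnmt3a+/- arrays. In each genotype the highest median was thus on the array with the lowest replication genes. The B lineage and the T and NK lists, given below, also had their highest medians on these arrays. Both lists were dim, with 47 of 103 and 38 of 87 probe sets above the table's median level. Of the 9 handling stress genes 8 were highest on wild-type replicate 1. Fos stood at 9.50, 7.77 and 7.50 on the wild-type arrays against 8.13, 8.45 and 7.66 on the Dnmt3a+/- arrays. The summed linear intensity of the list ran from 2643 to 6379 in wild-type and from 2521 to 4538 in Dnmt3a+/- cells. Between genotypes 0 of the 9 passed over all genes, with Junb at -0.23 (SE 0.14), Atf3 at 0.28 (SE 0.18) and Hspa1a at -0.88 (SE 0.71). The part of the handling list in the spread of the replication genes was not tested.

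Neutrophil genes did not follow the same arrays. Their median over 12 of 14 listed genes was 0.17, -0.32 and 0.18 on the wild-type arrays against 0.68, 0.11 and 0.010 on the Dnmt3a+/- arrays, with summed intensities of 11191 to 16449 and 14240 to 20074, and Ly6g below the filter. Erythroid genes (10 of 12 measured) had medians of -0.16, 0.088 and 0.030 on the wild-type arrays against -0.23, -0.0098 and 0.015 on the Dnmt3a+/- arrays, with sums of 2990 to 4428 and 2865 to 3249. The 8 measured markers of stem and progenitor cells had wild-type medians of -0.049 to 0.039 and Dnmt3a+/- medians of -0.11 to -0.066. Their sums were 6704 to 7260 in wild-type and 6013 to 6476 in Dnmt3a+/- cells. Medians and sums were thus lower on every Dnmt3a+/- array. The sums weigh bright genes most. Over all genes, the 3 highest level deciles had median differences of -0.14 to -0.12, with 81.1% of genes negative in the highest. Kit was the only marker of this list whose genotypes did not overlap (-0.11, SE 0.10), where 9.05% of all genes were lower without overlap. In the 3 highest level deciles that share was 15.8% to 19.0%. Flt3 ran from 9.80 to 10.60 over the 6 arrays. B lineage genes had medians of 0.043, -0.014 and -0.13 on the wild-type arrays against 0.012, 0.24 and -0.0095 on the Dnmt3a+/- arrays. For T and NK genes they were 0.10, -0.027 and -0.027 against 0.095, 0.20 and -0.085. Monocyte and macrophage genes (11 of 12 measured) had medians of 0.067, -0.013 and -0.025 on the wild-type arrays against 0.23, 0.13 and 0.12 on the Dnmt3a+/- arrays. That median was higher on every Dnmt3a+/- array, with summed intensities of 2949 to 3145 and 2932 to 3311. Of the 11, 3 were higher without overlap and 1 lower, against 6.74% and 9.05% of all genes. Megakaryocyte medians ran from -0.055 to 0.039 in wild-type and from -0.19 to 0.22 in Dnmt3a+/- cells. The part of these cells in the replication values was not tested.

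**Figure D5:**
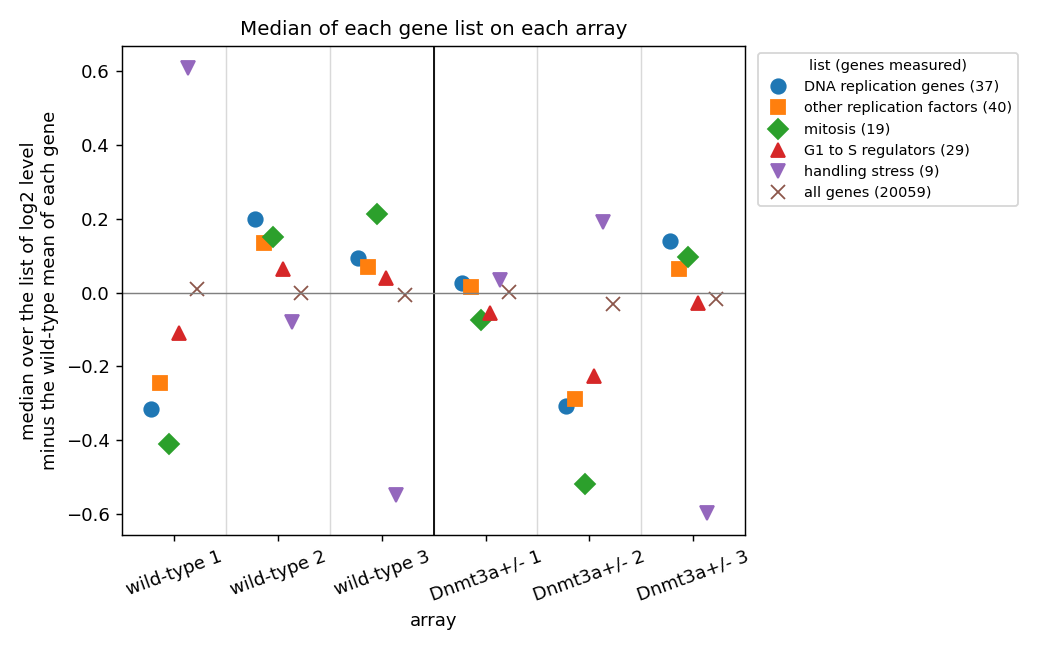
Median over each gene list (marker shape and colour, with the number of genes) of the log2 level minus the wild-type mean of each gene (y axis), on each array (x axis). The replication, other replication and mitosis lists are lowest on wild-type replicate 1 and Dnmt3a+/- replicate 2, where the handling stress list is at 0.61 and 0.19, and the median of all genes stays between -0.032 and 0.0092.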

How the data were processed

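Total RNA of KLS cells was hybridised to 6 single-colour arrays. Per the labels' protocols, 20 ng of RNA was amplified as whole-transcript cDNA and labelled with biotin. The authors deposited intensity values on a linear scale, made with RMA in Partek per the submitters' processing notes; their versions, settings and the genome build were not stated in the sources used. Quantile normalization hides changes shared by most genes.

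From these values log2 was taken without a pseudocount. A gene's value was the mean over its named probe sets above the median probe-set level (log2 5.89). Genotypes were compared over all 20059 genes, and over 628415 probe sets, with limma 3.58.1 in R 4.3.3 (lmFit, eBayes, no covariate, Benjamini-Hochberg). The fit was run on simulated data with independent noise, which lacked the shared array shifts seen here. An exact two-sided permutation test over arrays is given for Cdt1. Full array values are printed for the MCM ring, Pcna and the 10 members with the smallest p, and differences for the 3 genes with the smallest p per further pathway list; Orc6, Rrm2 and Fos were picked with their values in view. The members and lists were chosen with earlier results of these data known. Alternatives were another normalization, filter, summary, variance model, array weights, the replicate block and leaving out each array.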

Additional observations from a re-analysis of the deposited data

How the results depend on the processing

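No gene passed over all genes under any of the 14 alternatives, no probe set passed with the replicate block or without any 1 array (limma, 0 each), and the member median stayed within its spread between arrays, from -0.20 to 0.12 when 1 array was left out. Members with an unadjusted p under 0.05 (limma) numbered 1 with the median of probe sets (Cdt1), where 6.78% of all genes had one. They numbered 0 to 1 without single arrays, where 4.61% to 9.61% of all genes had one. Members with non-overlapping genotypes numbered 1 to 10 without single arrays. There were 10 without wild-type replicate 1, against 31.4% of all genes. There was 1 without wild-type replicate 3 or Dnmt3a+/- replicate 1, against 23.7% and 26.2% of all genes. With the median of probe sets Mcm3 was at -0.0696, Mcm4 at 0.022 and Rpa2 at -0.037; the cause was not tested. Without single arrays the ranges were -0.28 to 0.13 for Mcm2, -0.23 to 0.17 for Mcm3, -0.24 to 0.074 for Mcm4, -0.42 to 0.014 for Mcm5, -0.26 to 0.032 for Mcm6, -0.30 to 0.12 for Mcm7, -0.23 to 0.0016 for Pcna and -0.012 to 0.48 for Pole2. Same-numbered arrays did not deviate together (correlations -0.048, -0.091 and 0.11, and 2 of 6 arrays correlated best with their own number). With the replicate block 0 members had an unadjusted p under 0.05, against 6.35% of all genes, and the member median was -0.035. The number of arrays limits the precision.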
